A study of Mus musculus with 4 samples.

Results

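The semaphorins, plexins and neuropilins are a family of guidance ligands and their receptors, described here in cells of the mouse embryo. They were picked by a rule on gene symbols, set with earlier results of these data known. The rule found 31 of the 32285 genes listed: 20 semaphorins, 9 plexins and 2 neuropilins. The cells came from the aorta-gonad-mesonephros region (AGM), a site where definitive blood stem cells arise, of C57BL/6J embryos at stage E11.5, and the labels name no other allele or treatment. Cells positive for CD31, a surface protein of endothelium and some blood cells, were sorted by TMRM, a dye that gathers in mitochondria of high membrane potential. The fraction of low potential (MMPlow) and the fraction of high potential (MMPhigh) each gave 2 droplet libraries. The labels do not say whether the libraries of a fraction came from separate embryos, so p-values measure only the spread between these libraries, which may be technical.

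Semaphorins share a sema domain and act on the shape, adhesion and migration of the cells that receive them. Class 3 semaphorins are secreted, and most bind a neuropilin while a plexin passes the signal inward; classes 4, 5 and 6 span the membrane and class 7 is held by a lipid anchor. Neuropilins also bind VEGF family growth factors, and in embryonic vessels Nrp1 is known for arterial and Nrp2 for venous and lymphatic endothelium.

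After filtering, 41518 cells remained, 15698 and 18404 of MMPlow and 4139 and 3277 of MMPhigh. Values of a fraction are given for its library 1, then library 2. Median depths were 3082 and 3639 UMIs per cell in MMPlow against 3796 and 22940.0 in MMPhigh, where a UMI (unique molecular identifier) stands for a captured RNA molecule. Clustering without the 31 genes gave 31 clusters, which marker genes gathered into 12 classes and 9 unnamed clusters. Endothelial-like cells were 49.0% and 47.4% of MMPlow 1 and 2 but 0.387% and 0.427% of MMPhigh 1 and 2, that is 16 and 14 cells. Pecam1, which encodes CD31, stood at 275 and 262 CPM (UMIs scaled to equal library totals) in MMPlow against 25.1 and 23.15 CPM in MMPhigh. Within MMPhigh it was 493 and 568.5 CPM in endothelial-like and 127 and 141 CPM in germ cell-like cells. It was 49.6 and 45.9 CPM in macrophage-like, 1.27 and 1.24 CPM in mesenchymal-like and 1.43 and 1.66 CPM in muscle progenitor-like cells. Clusters 10, 18 and 19 drew over 70% of their cells from 1 library, and cluster 18 was a class by itself. It raised 9 neuron markers, but its 10 leading genes hold none of them and include the liver genes Afp, Rbp4, Apoa2 and Alb beside Neurod1 and Isl1, so it is called cluster 18 here and not by a cell type. In the epithelial or mesonephric-like cluster the 10 leading genes hold Epcam, Krt8 and Krt18, beside Trp63, Sfn and Wnt6, but not Pax2 or Pax8. The name does not tell epithelium of the mesonephros from other epithelium. Pairs of libraries shared 6 to 82 retained barcode sequences.

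Sequences just upstream of the start are shown for Plxnd1, Nrp2 and Sema3g, 3 genes that were highest in endothelial-like cells and lower in MMPhigh as a whole. By GENCODE vM21 on GRCm38 (mm10), Plxnd1 lies at chr6:115954811-115995005 (minus strand), Nrp2 at chr1:62703285-62818695 (plus strand), Sema3g at chr14:31217860-31230352 (plus strand) and Nrp1 at chr8:128358604-128503363 (plus strand). The 150 bases before each start were read from RefSeq promoters of GRCm38.p6, where 26 of the 31 symbols matched. They run 5′ to 3′ on the gene's strand, and capitals mark GGAA or TTCC, the core letters of ETS factor sites, found on either strand.
Plxnd1, chr6:115995006-115995155: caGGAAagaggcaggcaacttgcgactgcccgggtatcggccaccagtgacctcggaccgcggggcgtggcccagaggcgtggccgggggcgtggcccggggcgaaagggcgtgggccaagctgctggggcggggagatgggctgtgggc
Nrp2, chr1:62703135-62703284: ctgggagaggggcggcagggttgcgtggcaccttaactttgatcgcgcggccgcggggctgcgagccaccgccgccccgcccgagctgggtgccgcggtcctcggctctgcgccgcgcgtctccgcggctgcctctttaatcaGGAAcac
Sema3g, chr14:31217710-31217859: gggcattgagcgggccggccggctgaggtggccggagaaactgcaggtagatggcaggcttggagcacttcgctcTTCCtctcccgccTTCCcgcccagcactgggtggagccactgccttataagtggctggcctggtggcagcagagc
The Plxnd1 and Nrp2 windows held 1 match each and the Sema3g window 2. Of 32851 promoter windows of this length, 80.8% held at least 1. The letters ACAAT or ATTGT, the core of SOX factor sites, were in none of these 3 windows and in 17.4% of all. G and C made up 74.0%, 72.7% and 66.0% of the 3 windows, against a median of 54%.

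Levels by class are CPM of the UMIs summed over a class in a library, given as the mean and SD over all libraries of both fractions with at least 10 cells of the class. They are compared within a gene only, among the 11 other classes and clusters 14, 15 and 18. The other unnamed clusters were not ranked, and a gene may stand higher in one of them. In haematopoietic progenitor-like and granulocyte or mast-like cells MMPhigh 1 had under 10 cells, so their means (n = 3) weigh MMPlow more than those of other classes. They are a description with no test, since the classes were made from the same cells. Both neuropilins were highest in endothelial-like cells. Nrp1 stood there at 536.5 and 600.1 CPM in MMPlow against 631 and 819.9 CPM in MMPhigh. Neural crest derivative-like cells followed with 351 ± 51.7 CPM (SD, n = 4), then macrophage-like cells with 268 ± 8.17 CPM (SD, n = 4) and cluster 18 with 248 ± 71.2 CPM (SD, n = 4). Every endothelial-like value was above every neural crest value, while values of macrophage-like cells and cluster 18 overlapped. Nrp2 stood at 424 and 444 CPM in MMPlow against 558 and 651 CPM in MMPhigh in endothelial-like cells, at 208 ± 19.7 CPM (SD, n = 4) in neural crest derivative-like cells and at 188.5 ± 9.59 CPM (SD, n = 4) in cluster 15. The neural crest and cluster 15 values overlapped. Cluster 15 was led by Cacna2d3, Nrxn3 and Adarb2 and raised all 10 neuron markers, none of them among its 10 leading genes. In macrophage-like cells Nrp2 averaged 32.3 ± 17.3 CPM (SD, n = 4).

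Plxnd1, the receptor of Sema3e known from vascular endothelium, stood at 363 ± 47.7 CPM (SD, n = 4) in endothelial-like cells, and those cells held 82.8% and 82.45% of its UMIs in MMPlow but 21.2% and 20.6% in MMPhigh. In MMPhigh macrophage-like cells held more, 25.7% and 36.3%. In the other named classes Plxnd1 was below every endothelial-like value, with MMPlow means from 15.9 CPM in erythroid-like to 71.0 CPM in granulocyte or mast-like cells (n = 2). Of the class A plexins, partners of neuropilins and receptors of class 6 semaphorins, Plxna4 was highest in a named class and the others in clusters 14 and 15, which have no class name. Plxna4 averaged 210.5 ± 111.5 CPM (SD, n = 4) in neural crest derivative-like cells, with MMPhigh 2 far above the other libraries. Plxna2 averaged 299 ± 102 CPM (SD, n = 4) in cluster 14, which was led by Adgrv1, Sox2ot and Rfx4 and raised 8 neural progenitor markers, none of them among its 10 leading genes. Plxna1 and Plxna3 were highest in cluster 15, at 41.6 ± 8.48 CPM (SD, n = 4) and 18.5 ± 4.29 CPM (SD, n = 4). Among the named classes alone, Plxna1 and Plxna2 were highest in muscle progenitor-like cells, at 25.5 ± 11.8 CPM (SD, n = 4) and 162 ± 40.7 CPM (SD, n = 4), which overlapped cluster 15 for Plxna1 and cluster 14 for Plxna2. Plxnb1, a receptor of Sema4d, was also highest in cluster 15, at 45.9 ± 7.33 CPM (SD, n = 4), with overlapping values in cluster 14 (38.8 ± 9.07 CPM).

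Blood classes carried other plexins. Plxnb2, a receptor of class 4 semaphorins, averaged 99.5 ± 27.0 CPM (SD, n = 4) in macrophage-like cells. Plxnc1, the receptor of Sema7a, averaged 98.9 ± 23.0 CPM (SD, n = 3) in granulocyte or mast-like, 96.5 ± 9.80 CPM (SD, n = 4) in megakaryocyte-like and 76.8 ± 26.5 CPM (SD, n = 3) in haematopoietic progenitor-like cells, whose values overlapped. The unnamed cluster 17, not ranked here, held 27.2% and 25.95% of Plxnc1 UMIs in MMPlow and 21.2% and 30.7% in MMPhigh. It held 7.12% and 5.825% of cells in MMPlow and 2.22% and 7.78% in MMPhigh. Plxnb3 stayed low throughout, with a highest mean of 1.63 ± 0.847 CPM (SD, n = 4) in megakaryocyte-like cells.

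**Figure D1:**
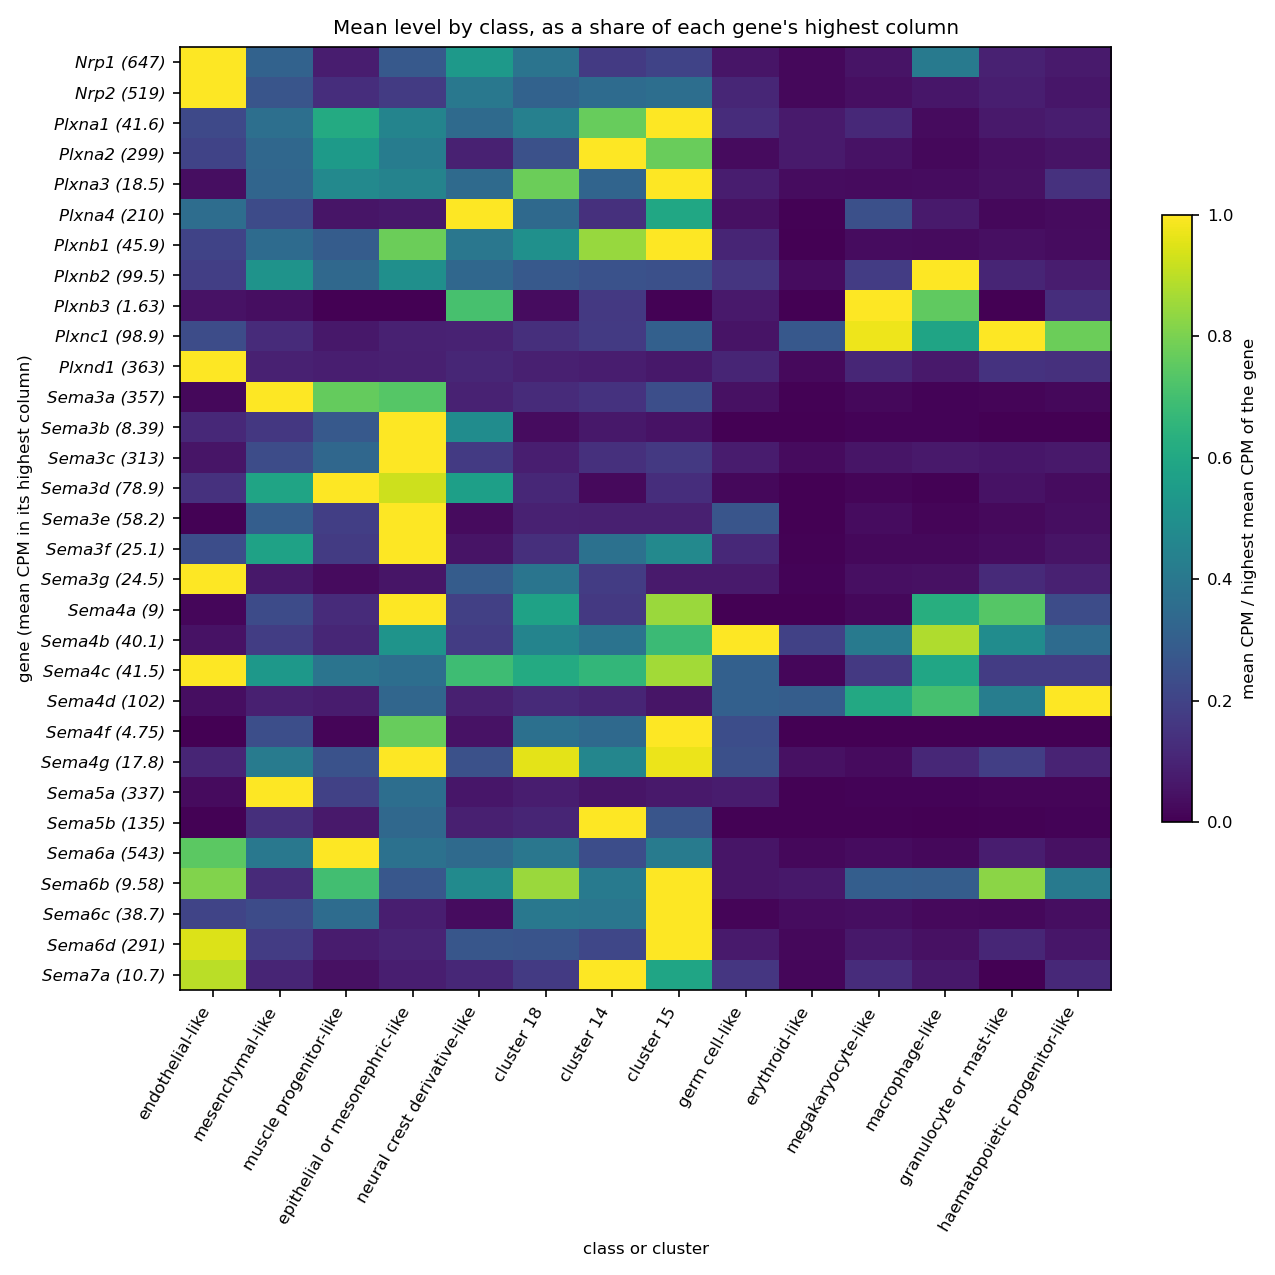
Mean CPM of each of the 31 genes (vertical axis) in 11 named classes and clusters 14, 15 and 18 (horizontal axis), divided by the gene's highest column, whose mean CPM stands beside the symbol. Colour runs from 0 to 1. Nrp1, Nrp2, Plxnd1, Sema3g and Sema4c were highest in endothelial-like cells, and Sema4d, Plxnc1, Plxnb2 and Plxnb3 in blood classes.

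Most secreted class 3 ligands were highest outside the endothelium. Sema3a, a repellent cue that binds Nrp1, averaged 357 ± 55.6 CPM (SD, n = 4) in mesenchymal-like and 273 ± 29.1 CPM (SD, n = 4) in muscle progenitor-like cells, against 7.50 ± 6.53 CPM (SD, n = 4) in endothelial-like cells. Sema3c, which binds both neuropilins, averaged 313 ± 104 CPM (SD, n = 4) in epithelial or mesonephric-like cells and 105 ± 13.8 CPM (SD, n = 4) in muscle progenitor-like cells, without overlap. Sema3e, the ligand of Plxnd1, averaged 58.2 ± 21.2 CPM (SD, n = 4) in epithelial or mesonephric-like cells and 17.4 ± 2.48 CPM (SD, n = 4) in mesenchymal-like cells, also without overlap. The epithelial class was highest for Sema3f, a ligand of Nrp2, at 25.1 ± 8.20 CPM (SD, n = 4), and for Sema3b, at 8.39 ± 4.02 CPM (SD, n = 4). Sema3d averaged 78.9 ± 38.7 CPM (SD, n = 4) in muscle progenitor-like cells and 72.8 ± 40.2 CPM (SD, n = 4) in epithelial cells, which overlapped. Sema3g was the exception, at 24.5 ± 12.2 CPM (SD, n = 4) in endothelial-like cells, where the MMPhigh values rest on 7 and 14 UMIs.

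Sema4d, known as CD100 on immune cells, averaged 102 ± 11.4 CPM (SD, n = 3) in haematopoietic progenitor-like, 71.9 ± 18.95 CPM (SD, n = 4) in macrophage-like and 61.8 ± 5.25 CPM (SD, n = 4) in megakaryocyte-like cells. Sema4b averaged 40.1 ± 9.015 CPM (SD, n = 4) in germ cell-like and 35.3 ± 5.735 CPM (SD, n = 4) in macrophage-like cells, which overlapped. Sema4a and Sema4g were highest in epithelial or mesonephric-like cells, at 9.004 ± 6.58 CPM (SD, n = 4) and 17.8 ± 9.74 CPM (SD, n = 4), with wide spreads that overlapped the next classes. Sema4c averaged 41.5 ± 9.23 CPM (SD, n = 4) in endothelial-like cells and 35.7 ± 5.14 CPM (SD, n = 4) in cluster 15, which overlapped, and Sema4f 4.75 ± 1.46 CPM (SD, n = 4) in cluster 15. Sema5a, which carries thrombospondin repeats, averaged 337 ± 64.4 CPM (SD, n = 4) in mesenchymal-like cells. Its paralogue Sema5b averaged 135 ± 38.0 CPM (SD, n = 4) in cluster 14. Sema6a, a ligand of class A plexins, averaged 543 ± 74.8 CPM (SD, n = 4) in muscle progenitor-like and 406.5 ± 90.4 CPM (SD, n = 4) in endothelial-like cells. Sema6d averaged 291 ± 80.8 CPM (SD, n = 4) in cluster 15 and 276 ± 29.9 CPM (SD, n = 4) in endothelial-like cells, Sema6c 38.7 ± 8.90 CPM (SD, n = 4) and Sema6b 9.58 ± 2.90 CPM (SD, n = 4) in cluster 15, and Sema7a 10.7 ± 3.87 CPM (SD, n = 4) in cluster 14 and 9.57 ± 2.63 CPM (SD, n = 4) in endothelial-like cells. Values of Sema6a, Sema6d and Sema7a in those pairs of classes overlapped. For Sema6d the order turned between the fractions. Cluster 15 stood at 136.9% and 110.9% of the endothelial-like level in MMPlow but at 94.0% and 79.1% in MMPhigh.

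Each class can also be read by the 3 genes that stood highest in it relative to their own mean over all classes and clusters. Endothelial-like cells were led by Sema3g, Plxnd1 and Nrp2. Mesenchymal-like cells were led by Sema5a, Sema3a and Sema3d, muscle progenitor-like cells by Sema3d, Sema3a and Sema6a and epithelial or mesonephric-like cells by Sema3e, Sema3b and Sema3c, mainly secreted ligands. In blood classes the leaders were Plxnb3, Plxnb2 and Sema4b in macrophage-like, Plxnb3, Plxnc1 and Sema4d in megakaryocyte-like, Sema4d, Plxnc1 and Sema6b in haematopoietic progenitor-like, Sema4a, Plxnc1 and Sema6b in granulocyte or mast-like and Sema4d, Plxnc1 and Sema4b in erythroid-like cells. The leaders were Plxna4, Sema3b and Plxnb3 in neural crest derivative-like cells, Plxna3, Sema4g and Sema4f in cluster 18, Sema5b, Sema7a and Plxna2 in cluster 14, Sema4f, Sema6c and Plxna3 in cluster 15 and Sema3e, Sema4b and Sema4f in germ cell-like cells. Some rest on very few UMIs: Plxnb3 in neural crest derivative-like cells on 3 over all libraries, Sema4f in germ cell-like cells on 6, and Sema6b and Sema4a in granulocyte or mast-like cells on 10 and 12.

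Within the endothelium the neuropilins parted by vessel type. Endothelial-like cells were clustered again without the 31 genes, and the MMPlow libraries gave levels in 9 sub-clusters. The arterial-like sub-cluster (407 and 500 cells in MMPlow 1 and 2, 10 arterial markers raised) had Nrp1 at 1336 and 1668 CPM and Nrp2 at 88.1 and 69.25 CPM. The lymphatic-like sub-cluster (96 and 126 cells, 6 lymphatic markers raised) had Nrp1 at 115 and 102 CPM and Nrp2 at 1404 and 1556 CPM. In both libraries these were the highest and lowest sub-clusters of each gene, in opposite order. The sub-cluster led by Tll1 and Egfem1 was next for Nrp2, at 782.5 and 818 CPM. No sub-cluster was named venous-like.

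Single cells showed the same order once each was thinned to 2000 UMIs, the least that any retained cell had. Nrp1 was detected in 87.2% (83.6% to 90.3%) and 92.4% (89.7% to 94.6%) of arterial-like cells of MMPlow 1 and 2 (95% exact Clopper-Pearson intervals, counting error only) and in 15.6% (9.02% to 24.5%) and 18.25% (11.9% to 26.1%) of lymphatic-like cells. Nrp2 was detected in 12.04% (9.04% to 15.6%) and 11.2% (8.57% to 14.3%) of arterial-like and 85.4% (76.7% to 91.8%) and 92.1% (85.9% to 96.1%) of lymphatic-like cells. The shares come from the same UMIs as the levels above. They are a description with no test, since cells are not replicates and the sub-clusters were made from these cells. Without thinning the shares for Nrp1 were 92.6% and 97.0% against 22.9% and 29.4%, and for Nrp2 18.7% and 18% against 94.8% and 98.4%, at median depths of 2697 and 3174 UMIs in arterial-like and 3102 and 4096 UMIs in lymphatic-like cells. In erythroid-like cells, which should lack both genes, thinned shares were 2.78% and 7.23% for Nrp1 and 2.78% and 2.41% for Nrp2, and unthinned shares 11.1% and 24.1% and 15.3% and 15.7%, at median depths of 9582 and 10980.0 UMIs. Over all endothelial-like cells, Nrp1 and Nrp2 were detected together in 29.4% and 31.8% of thinned cells.

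**Figure D2:**
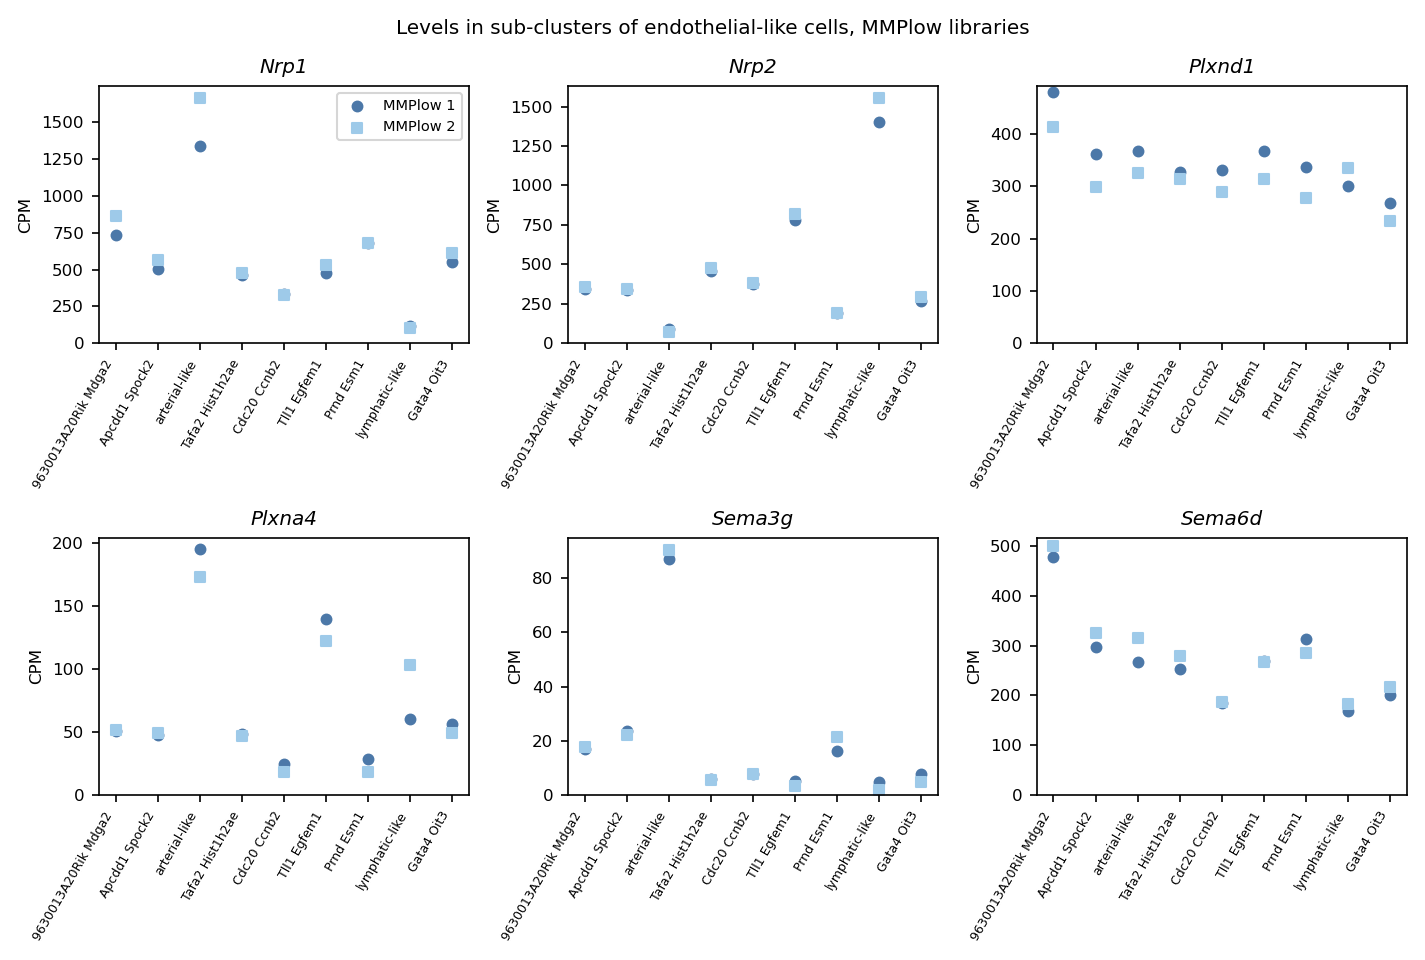
CPM (vertical axes, from 0) of 6 genes in 9 sub-clusters of endothelial-like cells (horizontal axes, by name or leading genes), with 1 symbol each for MMPlow 1 and MMPlow 2. Nrp1, Plxna4 and Sema3g were highest in the arterial-like and Nrp2 in the lymphatic-like sub-cluster, while Plxnd1 lay between 233.5 and 479.8 CPM in all of them.

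Other genes were highest in arterial-like cells too. Sema3g stood there at 87.3 and 90.65 CPM in MMPlow 1 and 2, and between 1.54 and 23.5 CPM in every other sub-cluster and library. Sema7a stood at 37.8 and 42.8 CPM and nowhere else above 14.2 CPM. Plxna4 stood at 195 and 173 CPM, followed by the Tll1 sub-cluster at 139 and 122 CPM, and Plxna2 at 166 and 189 CPM, followed by the sub-cluster led by 9630013A20Rik at 108 and 117 CPM. Sema4c was highest in lymphatic-like cells, at 83.7 and 78.5 CPM. Plxnc1 was highest in the sub-cluster led by Gata4 and Oit3, at 82.6 and 96.8 CPM, and Sema6a and Sema5a in the one led by Apcdd1 and Spock2, at 501.5 and 528 CPM and 32.1 and 36.0 CPM. The highest mean was 1.785 times the lowest for Plxnd1, against 13.9 times for Nrp1, 18.8 for Nrp2 and 28.1 for Sema3g.

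The first comparison was of the fractions with all retained cells of a library summed. With edgeR (quasi-likelihood F-test, Benjamini-Hochberg adjusted p under 0.05), 14 of the 31 genes were higher and 9 lower in MMPhigh, against a background of 53.8% of 20356 genes (27.3% higher and 26.5% lower). The median log2 fold was 0.21 over the 31 genes and 0.01 over all. In such sums fewer cells of a type and less RNA per cell cannot be told apart. Among the receptors Plxnd1 fell most, with 212 and 172 CPM in MMPlow against 10.25 and 7.52 CPM in MMPhigh (log2 fold -4.42, SE 0.19, edgeR adjusted p = 7.53e-06). Nrp2 stood at 255 and 248 CPM in MMPlow against 79.7 and 82.1 CPM in MMPhigh (log2 fold -1.60, SE 0.09, edgeR adjusted p = 2.17e-06). Nrp1 stood at 345 and 361 CPM in MMPlow against 132 and 132 CPM in MMPhigh (log2 fold -1.385, SE 0.09, edgeR adjusted p = 8.08e-06). For all 3 the fractions were far apart and the libraries of a fraction close together. In this and the later comparison, lack of overlap between the fractions is a description with no test. The share of all genes without overlap is not given here. Plxnc1, Sema3c and Sema3d did not overlap in these sums and were not called.

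Of the 9 plexins 5 rose, all of classes A and B, and 1 fell (background 27.3% higher and 26.5% lower). Plxna3 went from 2.86 and 2.28 CPM to 6.315 and 7.70 CPM (log2 fold 1.496, SE 0.175, edgeR adjusted p = 0.000197). Plxna1 went from 9.60 and 8.11 CPM to 16.6 and 17.1 CPM (log2 fold 0.97, SE 0.11, edgeR adjusted p = 0.000188). Neither overlapped between the fractions, and Plxna2 rose by 0.68 on the log2 scale. Plxnb1 went from 9.78 and 8.03 CPM to 15.95 and 16.2 CPM (log2 fold 0.89, SE 0.12, edgeR adjusted p = 0.000407) and Plxnb2 from 27.8 and 23.6 CPM to 48.3 and 43.25 CPM (log2 fold 0.87, SE 0.11, edgeR adjusted p = 0.000258), again without overlap. Plxna4, Plxnb3 and Plxnc1 were not called. With equal numbers of cells drawn from each class with at least 10 cells in every library, 4 of the 5 rises lost their call. The log2 fold was then 0.16 for Plxna3, 0.38 for Plxna1, 0.31 for Plxnb1 and 0.20 for Plxnb2 (edgeR adjusted p = 0.685, 0.197, 0.263 and 0.464), and Plxna2 kept its call.

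Of the 7 class 3 ligands 1 rose and 1 fell, against 27.3% and 26.5% of all genes. Sema3g fell from 8.87 and 8.35 CPM to 1.05 and 1.30 CPM (log2 fold -2.81, SE 0.17, edgeR adjusted p = 3.97e-06). Sema3a rose from 57.4 and 61.25 CPM to 74.35 and 86.0 CPM (log2 fold 0.47, SE 0.09, edgeR adjusted p = 0.00323). Neither overlapped. Sema3c stood at 52.5 and 31.9 CPM in MMPlow against 26.8 and 25.1 CPM in MMPhigh and was not called (log2 fold -0.66, SE 0.24, edgeR adjusted p = 0.0777), with MMPlow 1 far above MMPlow 2. Without MMPlow 2 it was called, at a log2 fold of -0.97. Sema3e, at 4.63 and 3.87 CPM in MMPlow against 6.16 and 4.61 CPM in MMPhigh, overlapped and was not called (log2 fold 0.37, SE 0.19, edgeR adjusted p = 0.137), but without MMPhigh 2 it was called, at a log2 fold of 0.59. Sema3f, at 5.73 and 4.47 CPM in MMPlow against 5.83 and 5.66 CPM in MMPhigh, overlapped as well (log2 fold 0.21, SE 0.16, edgeR adjusted p = 0.302), and Sema3b and Sema3d were not called either.

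Of the 6 class 4 ligands 5 rose, against 27.3% of all genes, and none of these 5 is among the 2 genes called higher with equal cells per class. Sema4f went from 0.276 and 0.230 CPM to 1.41 and 1.23 CPM (log2 fold 2.41, SE 0.29, edgeR adjusted p = 0.000233), on 17 and 20 UMIs in MMPlow and 55 and 119 UMIs in MMPhigh. Sema4b went from 10.3 and 9.93 CPM to 23.2 and 22.1 CPM (log2 fold 1.20, SE 0.10, edgeR adjusted p = 2.03e-05). Sema4a went from 1.46 and 1.62 CPM to 2.86 and 3.59 CPM (log2 fold 1.105, SE 0.20, edgeR adjusted p = 0.00203). In these the higher MMPlow library lay below the lower MMPhigh library. Sema4g went from 3.44 and 3.06 CPM to 6.06 and 6.57 CPM (log2 fold 1.00, SE 0.15, edgeR adjusted p = 0.000754). Sema4d rose by 0.51 on the log2 scale, and Sema4c fell by 0.64. Sema5b went from 5.21 and 5.62 CPM to 15.8 and 23.4 CPM (log2 fold 1.895, SE 0.18, edgeR adjusted p = 0.000130), with MMPhigh 2 well above MMPhigh 1. Sema5a rose by 0.29, a call lost without MMPlow 1 or MMPlow 2 (edgeR adjusted p = 0.141 and 0.0539). Of class 6, Sema6d fell from 165.5 and 161 CPM to 50.45 and 65.4 CPM (log2 fold -1.46, SE 0.12, edgeR adjusted p = 2.43e-05), Sema6a fell by 0.79 and Sema6b by 0.49, and Sema6c went from 7.60 and 6.715 CPM to 12.9 and 11.4 CPM (log2 fold 0.80, SE 0.13, edgeR adjusted p = 0.00111). The Sema6b call was lost without MMPlow 1, MMPlow 2 or MMPhigh 2. Sema7a, the anchored ligand, fell from 4.61 and 4.27 CPM to 2.35 and 1.985 CPM (log2 fold -1.01, SE 0.18, edgeR adjusted p = 0.00188).

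**Figure D3:**
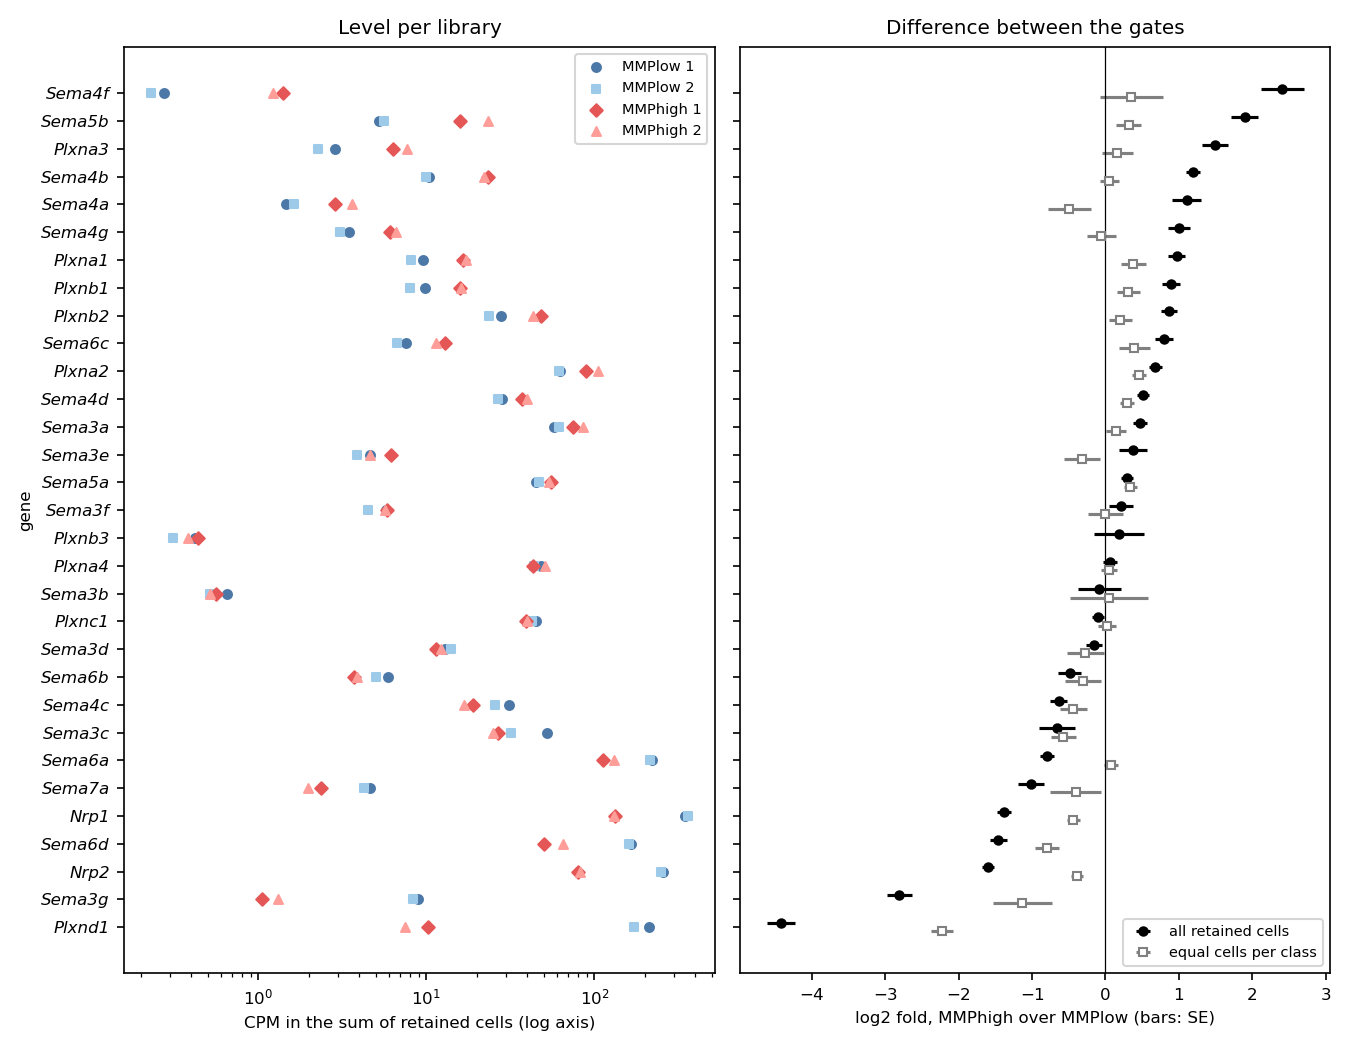
Left, CPM of each gene in the sum of retained cells of each library (log axis); right, log2 fold of MMPhigh over MMPlow with its SE, over all retained cells (filled circles) and with equal cells per class (open squares). Plxnd1 and Sema3g lie lowest and Sema4f highest. Among called genes, the open square lies across 0 from the filled circle for Sema4a, Sema4g and Sema6a. The same holds for Plxnc1, Sema3b, Sema3e and Sema3f, which were not called over all retained cells.

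With equal numbers of cells drawn per class, 2 of 30 genes were higher and 4 lower, against a background of 8.61% of 16625 genes. Cells were drawn once at random, from the 16 classes and clusters with at least 10 cells in every library. The number per library was that of the smallest library, 14 for endothelial-like cells. UMIs of the drawn cells were summed without scaling, so a class could still make up different shares of the UMIs in different libraries. Over all retained cells, median depths in MMPlow 1 and MMPhigh 1 were 3160 and 12900 UMIs in endothelial-like cells. In erythroid-like cells they were 9582 and 6166 UMIs. Haematopoietic progenitor-like and granulocyte or mast-like cells and clusters 1, 2 and 10 were left out. Plxnd1 fell by 2.22 (SE 0.15) on the log2 scale, Sema6d by 0.80 (SE 0.16), Nrp1 by 0.44 (SE 0.08) and Nrp2 by 0.39 (SE 0.09). Plxna2 rose by 0.46 (SE 0.09) and Sema5a by 0.34 (SE 0.09). In the same sums 12 of the 12 endothelial markers tested were lower, with log2 folds from -3.66 to -1.11 and a median of -2.51. Their part in the falls was not tested. For Sema6a the log2 fold moved from -0.79 to 0.08, for Sema4a from 1.105 to -0.49 and for Sema4g from 1.00 to -0.06, none of them called. Of the 23 genes called in the sums of all cells 17 were not called here. Besides these 3 and the 4 plexins named above, they were Sema3a, Sema4b, Sema4d, Sema4f, Sema5b and Sema6c, with log2 folds of 0.15, 0.05, 0.29, 0.35, 0.32 and 0.39, and Sema3g, Sema4c, Sema6b and Sema7a, with -1.13, -0.44, -0.31 and -0.41. The SE was wider than in the sums of all cells, 0.40 against 0.17 for Sema3g and 0.43 against 0.29 for Sema4f. The part of the smaller number of cells in the lost calls was not tested. As arithmetic with no test, MMPlow class levels were given the class make-up of MMPhigh. This alone gave a log2 ratio of -1.06 for Nrp1, where the observed ratio of means was -1.42. For Nrp2 it gave -1.29 of -1.635, for Sema4f 2.24 of 2.38, for Plxna2 0.24 of 0.64, and for Plxnd1 -1.96 of -4.43. For 6 of the 31 genes it had the opposite sign to the observed ratio. Sema5a was the 1 of these called in the sums of all cells (-0.02 against 0.26). Sema3c, not called, differed most among them (0.15 against -0.70), and the others were Plxna4, Plxnb3, Plxnc1 and Sema3f.

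The second comparison was of the fractions within a class. In endothelial-like cells edgeR called 0 of 27 genes, against a background of 1.24% of 15052 genes. At an unadjusted p under 0.05, 4 passed (Nrp2, Sema3a, Sema3g and Sema6a), against 2001 of 15052 genes. DESeq2, which gave an adjusted p for 22 of the 27, called 2, Nrp2 and Sema3g, against 396 of 15052 genes. Plxnd1 stood at 360.5 and 316 CPM in MMPlow against 346 and 428.5 CPM in MMPhigh (log2 fold 0.17, SE 0.17, edgeR adjusted p = 0.660), with overlap. Nrp2, whose values are given above, did not overlap (log2 fold 0.45, SE 0.16, edgeR adjusted p = 0.230). Lymphatic-like cells, in which Nrp2 is highest, were 96 of 7698 and 126 of 8721 endothelial-like cells in MMPlow but 2 of 16 and 2 of 14 in MMPhigh, and the part of this make-up was not tested. Sema3g stood at 14.7 and 14.7 CPM in MMPlow against 28.5 and 40.0 CPM in MMPhigh (log2 fold 1.22, SE 0.36, edgeR adjusted p = 0.126), also without overlap. The 16 and 14 endothelial-like cells of MMPhigh limit the precision of these values.

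Over the 16 classes and clusters in which each library had 10 or more cells, 287 pairs of gene and class were tested. MMPhigh was higher in 14 and lower in 58, against a background of 4.81% higher and 6.44% lower over all genes. The count of higher pairs was 22 without MMPhigh 1 or without MMPhigh 2, and 7 without MMPlow 1 or without MMPlow 2. Outside endothelial-like cells, 30 genes were tested in 260 pairs, and 13 of them were lower in at least 1. The background above counts pairs of gene and class, and no share over all genes is given for counts per gene. Plxnd1 was lower in 11 of 14 pairs, Nrp1 and Nrp2 in 8 of 15 each, Sema6d in 7 of 14, Sema3c in 6 of 12 and Sema6a in 5 of 14, while Nrp1, Sema3c and Sema6a were each higher in 1. The 17 genes lower in none include Sema7a, tested in 3. Sema5a was higher in 3 of 11 pairs and lower in 3. Plxna2 was higher in 2 of 13 and lower in 1, and Sema5b was higher in 2 of 5 and lower in none.

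Plxnd1 was lower in 11 of the 14 other classes and clusters where it was tested. In mesenchymal-like cells it fell from 70.7 and 48.7 CPM to 9.54 and 5.79 CPM (log2 fold -2.99, SE 0.27, edgeR adjusted p = 0.000427). In cluster 15 it fell from 47.2 and 47.1 CPM to 0.871 and 0.669 CPM (log2 fold -5.97, SE 0.355, edgeR adjusted p = 3.22e-06), and in epithelial or mesonephric-like cells from 58.3 and 60.2 CPM to 2.82 and 5.40 CPM (log2 fold -3.78, SE 0.51, edgeR adjusted p = 0.000512). The MMPhigh libraries were low in each. RNA of 12 endothelial marker genes was lower in MMPhigh in the same places. Their sum in mesenchymal-like cells was 869.8 and 711 CPM in MMPlow against 57.45 and 55.1 CPM in MMPhigh. Over the 15 other classes and clusters it ran from 361 to 2137 CPM in MMPlow 1, 438 to 2201 CPM in MMPlow 2, 16.2 to 389 CPM in MMPhigh 1 and 17.8 to 396 CPM in MMPhigh 2, and 0 of the 12 markers were at 0 over these classes in any library. In endothelial-like cells it was 5778 and 6065 CPM in MMPlow against 5588 and 7493 CPM in MMPhigh. As a percentage of the endothelial-like level of MMPlow 1 and 2, Plxnd1 in mesenchymal-like cells was 19.6% and 15.4% and the marker sum 15.05% and 11.7%. In epithelial or mesonephric-like cells these were 16.2% and 19.1% and 18.02% and 17.5%, and in cluster 15 13.1% and 14.9% and 11.6% and 10.7%. The part of the marker RNA in the falls was not tested.

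**Figure D4:**
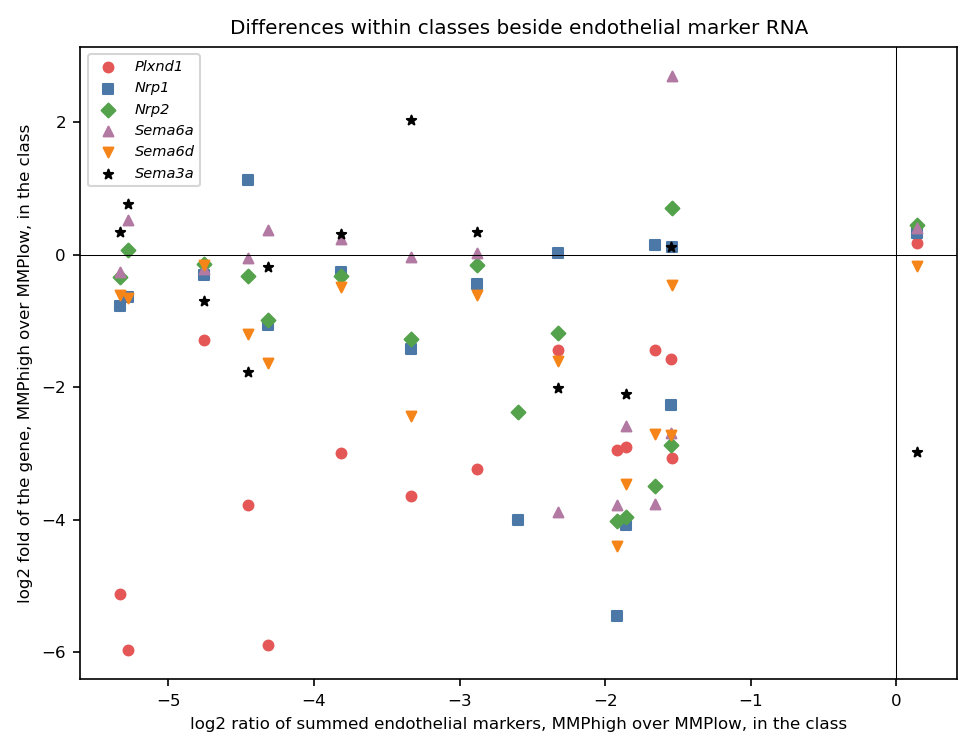
Log2 fold of 6 genes between the fractions within a class or cluster (vertical axis) against the log2 ratio of the 12 summed endothelial markers in the same class (horizontal axis), with 1 symbol per gene and class tested. Plxnd1 lies below 0 in all 14 other classes and clusters where it was tested and at 0.17 in endothelial-like cells, the column at the right.

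Nrp1 was lower in 8 of 15 other classes and clusters and higher in 1, and Nrp2 was lower in 8 of 15. In macrophage-like cells Nrp1 stood at 278 and 260.3 CPM in MMPlow against 271 and 262 CPM in MMPhigh and was not called (log2 fold 0.03, SE 0.10, edgeR adjusted p = 0.847). It stood there at 51.8% and 43.4% of its endothelial-like level in MMPlow 1 and 2, beside 11.2% and 8.70% for the marker sum. Nrp2 fell in the same cells from 54.4 and 37.85 CPM to 17.2 and 19.85 CPM (log2 fold -1.19, SE 0.17, edgeR adjusted p = 5.29e-05), where it was at 12.8% and 8.525% of its endothelial-like level. In megakaryocyte-like cells Nrp1 fell from 60.01 and 55.5 CPM to 8.05 and 12.4 CPM (log2 fold -2.27, SE 0.23, edgeR adjusted p = 8.53e-06) and Nrp2 from 46.9 and 31.2 CPM to 2.20 and 6.02 CPM (log2 fold -2.88, SE 0.35, edgeR adjusted p = 9.91e-05), beside a marker sum of 1260.0 and 1041 CPM in MMPlow against 389 and 396 CPM in MMPhigh. At clustering resolution 2 the Nrp1 call was lost (edgeR adjusted p = 0.303). In mesenchymal-like cells neither neuropilin was called.

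In macrophage-like cells 8 of 18 genes were called, against a background of 22%, and 2 were higher. Plxnb2 rose from 88.45 and 67.5 CPM to 128 and 114 CPM (log2 fold 0.71, SE 0.12, edgeR adjusted p = 0.000461). Sema4d rose from 55.0 and 56.6 CPM to 92.45 and 83.6 CPM (log2 fold 0.69, SE 0.12, edgeR adjusted p = 0.000259). Both MMPhigh libraries were above both MMPlow libraries for each. The class joins clusters 4 and 30, and cluster 30, led by Ctss, Mpeg1 and Lair1, held 19 and 35 of its 271 and 470 cells in MMPlow but 149 and 322 of 441 and 854 in MMPhigh. In cluster 4 alone Plxnb2 stood at 85.8 and 66.0 CPM in MMPlow against 113 and 106 CPM in MMPhigh, and in cluster 30 at 129 and 90.2 CPM in MMPlow against 164 and 132 CPM in MMPhigh. Sema4d stood at 52.3 and 53.7 CPM in MMPlow against 68.25 and 60.2 CPM in MMPhigh in cluster 4 and at 96.7 and 101 CPM in MMPlow against 148 and 137 CPM in MMPhigh in cluster 30. The fractions did not overlap in either cluster for either gene. This is a description with no test, since both genes were chosen by their calls in the sum of these same cells. Without MMPlow 2 the Plxnb2 call was lost. Plxna2, which rose in clusters 14 and 15, fell in macrophage-like cells from 11.8 and 6.91 CPM to 3.19 and 3.24 CPM (log2 fold -1.39, SE 0.35, edgeR adjusted p = 0.00674), without overlap but with a call lost without MMPlow 1. These levels rest on 18 to 71 UMIs a library. The Plxna2 call in cluster 15 was not the same in 4 alternative settings, counting fits with a library left out.

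In cluster 14, 5 of 22 genes were called, against a background of 11.2%. Plxna2 rose from 178.5 and 253 CPM to 402 and 361.5 CPM (log2 fold 0.85, SE 0.17, edgeR adjusted p = 0.00829), a call lost without MMPlow 1. DESeq2 called 2 of the 22 in cluster 14, Plxna2 and Plxnd1, against 552 of 10917 genes. In cluster 15, with 7 of 28 genes called against 12.8%, Sema6d fell from 386 and 331 CPM to 218 and 230.5 CPM (log2 fold -0.65, SE 0.11, edgeR adjusted p = 0.00414) and Sema6a rose from 192.5 and 182 CPM to 263 and 269.7 CPM (log2 fold 0.53, SE 0.11, edgeR adjusted p = 0.00893). The fractions did not overlap in these 3, and the Sema6a call was lost without MMPlow 2 or MMPhigh 2. In cluster 18 and neural crest derivative-like cells edgeR called 0 of 24 and 0 of 13 genes, against backgrounds of 0% and 1.66%. At an unadjusted p under 0.05, 4 and 3 passed, against 979 of 12268 and 833 of 7646 genes. DESeq2 called 1 (Plxnd1) and 0, against 42 of 12268 and 61 of 7646 genes.

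In epithelial or mesonephric-like cells, a cluster led by Epcam, Frmpd4 and Krt18, 6 of 19 genes were called, against a background of 12.7%. Sema3a fell from 379 and 434 CPM to 81.85 and 156.5 CPM (log2 fold -1.76, SE 0.24, edgeR adjusted p = 0.000683). Sema5a rose from 59.6 and 68.2 CPM to 169 and 191.5 CPM (log2 fold 1.49, SE 0.21, edgeR adjusted p = 0.000632). Sema5b rose from 5.07 and 10.0 CPM to 62.1 and 105 CPM (log2 fold 3.395, SE 0.43, edgeR adjusted p = 0.000322), on 4 and 10 UMIs in MMPlow and 22 and 39 UMIs in MMPhigh. The receptor Nrp1 rose from 106.5 and 120.4 CPM to 200.4 and 297 CPM (log2 fold 1.13, SE 0.21, edgeR adjusted p = 0.00445), while the endothelial marker sum was 1041 and 1064 CPM in MMPlow against 39.5 and 56.7 CPM in MMPhigh. None of these 4 overlapped. Sema3c rose from 233 and 219.7 CPM to 364 and 434 CPM (log2 fold 0.82, SE 0.17, edgeR adjusted p = 0.00650), a call lost without MMPlow 1 or MMPlow 2 and with DESeq2. The class held 186 and 208 cells of MMPlow but 19 and 16 of MMPhigh.

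In mesenchymal-like cells 4 of 30 genes were called, against a background of 20.6%. Sema5a rose from 268 and 313 CPM to 346 and 421 CPM (log2 fold 0.45, SE 0.12, edgeR adjusted p = 0.0198), and Sema3c fell from 99.7 and 82.0 CPM to 49.2 and 60.6 CPM (log2 fold -0.65, SE 0.13, edgeR adjusted p = 0.00380). Neither overlapped, but the Sema5a call was lost without MMPlow 1 or MMPlow 2 and the Sema3c call without MMPlow 1. The 4 clusters of this class differed in their ligands, and the fractions filled them differently. The cluster led by Acta2 and Tagln, genes of smooth muscle, held 249 and 260 of 1893 and 2062 cells in MMPlow but 15 and 15 of 315 and 420 in MMPhigh, and the cluster led by Tmem132c and Prrx1 held 471 and 506 against 114 and 172. In the Tmem132c cluster Sema5a stood at 234 and 263 CPM in MMPlow against 283 and 438 CPM in MMPhigh and Sema3c at 65.4 and 31.9 CPM in MMPlow against 11.2 and 20.7 CPM in MMPhigh, neither overlapping, with no test. Both genes were chosen by their calls in the class sum, which holds these cells. In MMPlow 1 and 2, Sema3a stood at 472 and 518 CPM in the Tmem132c cluster and at 22.9 and 52.3 CPM in the Acta2 cluster. In MMPhigh 1 and 2 the Acta2 cluster had 15.75 and 266 CPM, with MMPhigh 2 apart from the others. Sema5a stood at 401 and 493 CPM in the cluster led by Col2a1, a cartilage collagen, and at 126 and 125 CPM in the one led by Unc5c and Wt1. Sema3e stood at 40.6 and 26.05 CPM in the Col2a1 cluster, with 59.6 and 85.3 CPM in the epithelial cluster.

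**Figure D5:**
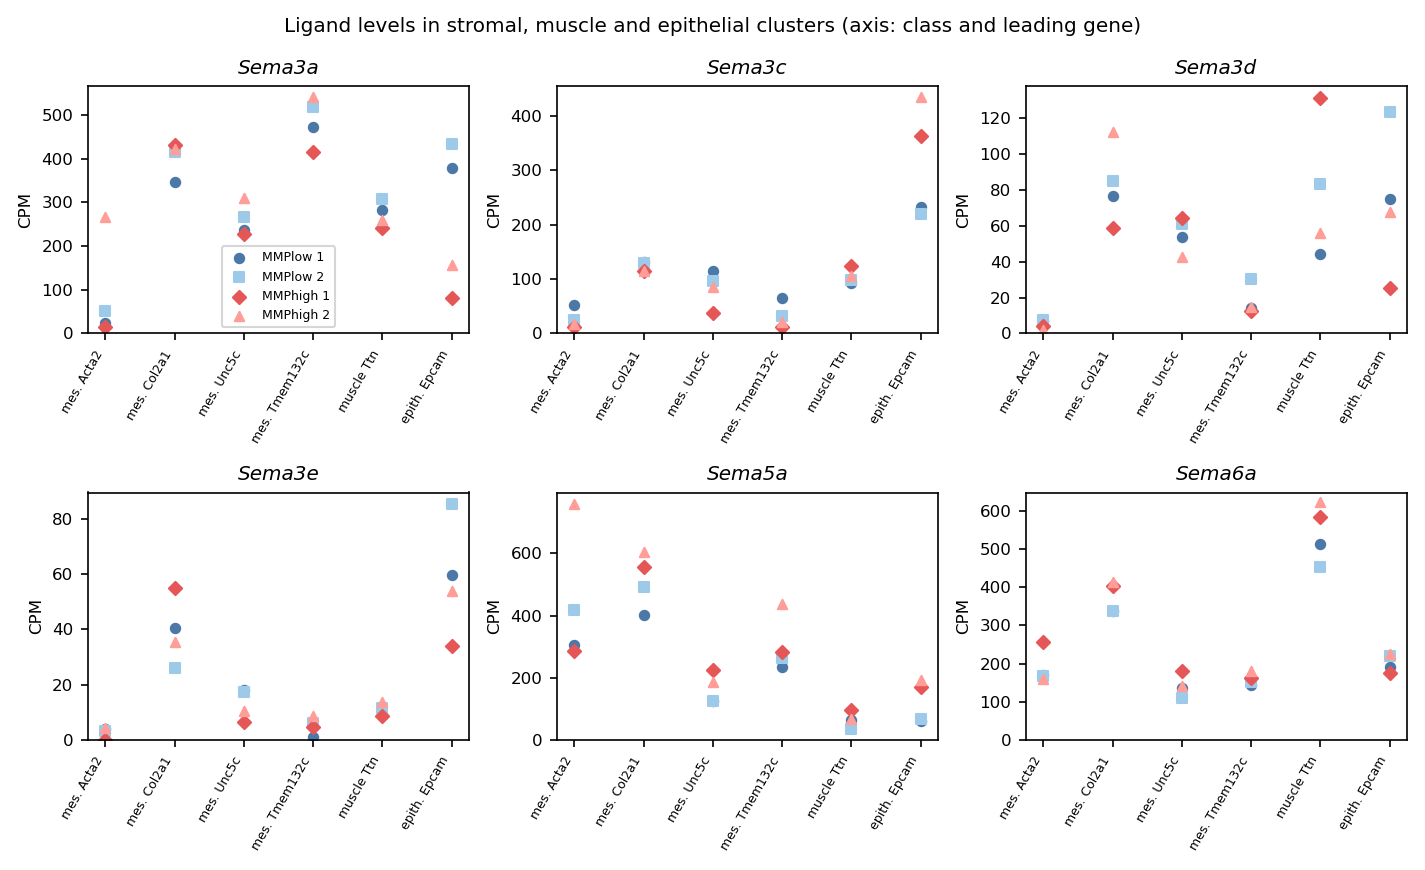
CPM (vertical axes, from 0) of 6 ligands in 4 mesenchymal-like clusters, the muscle progenitor-like cluster and the epithelial or mesonephric-like cluster (horizontal axes, class and leading gene), with 1 symbol per library. Sema3a was highest in the Tmem132c cluster except in MMPhigh 1, where the Col2a1 cluster was higher, and in every library Sema6a was highest in the muscle and Sema3c in the epithelial cluster.

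In the remaining classes and clusters the called genes were 8 of 17 in megakaryocyte-like cells against a background of 12.8%, 5 of 9 in erythroid-like cells against 10.4%, 4 of 18 in muscle progenitor-like cells against 2.52% and 2 of 5 in germ cell-like cells against 7.69%. In clusters 5, 11 and 17 they were 6 of 12, 7 of 16 and 10 of 19, against 6.77%, 21.6% and 25.9%. DESeq2 called 1 of the 18 in muscle progenitor-like cells, Plxnd1, against 126 of 9770 genes. It called 2 of the 12 in cluster 5, Nrp2 and Sema6a, against 140 of 8935 genes. The other 3 calls in muscle progenitor-like cells were also lost with a library left out, Nrp1 without MMPlow 2, Nrp2 without MMPlow 1, MMPlow 2 or MMPhigh 2, and Sema6d without MMPlow 2 or MMPhigh 2. The calls in germ cell-like cells, Nrp1 and Nrp2, were each not the same in 4 alternative settings, counting fits with a library left out. In cluster 11, 2 of the called genes were higher in MMPhigh, and in the other 6 every called gene was lower. In cluster 19 edgeR called 0 of 10, against a background of 0.0136%. At an unadjusted p under 0.05, 2 passed (Plxnd1 and Sema6a), against 536 of 7361 genes. DESeq2 called 0 of the 2 to which it gave an adjusted p, against 9 of 7361 genes.

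Of 53 other genes of the pathway, 19 were higher, 16 lower and 18 not called in the all-cell sums, against 27.3% higher and 26.5% lower over all genes. With equal cells per class 3 were higher and 5 lower, against 8.61% called over all genes. Of 10 growth factors that bind neuropilins and their receptors, 2 were higher and 5 lower. Kdr, the main VEGF receptor and also 1 of the 12 endothelial markers, fell from 348 and 351.5 CPM to 9.23 and 7.79 CPM (log2 fold -5.34, SE 0.13, edgeR adjusted p = 1.27e-07). Flt4, the VEGF-C receptor that pairs with Nrp2, fell from 65.9 and 64.1 CPM to 1.41 and 1.03 CPM (log2 fold -5.77, SE 0.14, edgeR adjusted p = 1.27e-07). Of 12 co-receptors and partners, 5 were higher and 3 lower. Nrcam, an adhesion molecule that associates with neuropilins, rose from 13.9 and 13.25 CPM to 130.3 and 167 CPM (log2 fold 3.49, SE 0.13, edgeR adjusted p = 4.02e-07). Of 31 cytoplasmic genes, 12 were higher and 8 lower. They include the collapsin response mediators, which act downstream of Sema3a: Dpysl4 rose from 7.91 and 7.84 CPM to 67.6 and 72.25 CPM (log2 fold 3.19, SE 0.09, edgeR adjusted p = 1.43e-07), and Crmp1, Dpysl2, Dpysl3 and Dpysl5 rose by 1.58, 1.005, 1.53 and 3.09 on the log2 scale. Cluster 15, which raised all 10 neuron markers, held 1.10% and 1.11% of MMPlow cells but 8.36% and 22.7% of MMPhigh cells. With equal cells per class the rises were smaller, with log2 folds of 0.44 for Nrcam and 0.56 for Dpysl4, both called, and of 0.42, 0.31, 0.33 and 0.36 for Crmp1, Dpysl2, Dpysl3 and Dpysl5, not called (edgeR adjusted p = 0.0559, 0.0549, 0.0507 and 0.0715). Rnd2 was the third gene called higher there, and the VEGF receptors Kdr, Flt1 and Flt4 and the integrin subunits Itga1 and Itgb1 the 5 called lower, by 2.49, 2.80, 2.88, 1.70 and 0.56 on the log2 scale.

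An edgeR model over 10 classes tested whether the difference between the fractions varied among classes. It called 13 of 29 genes, against a background of 22.2% of 14800 genes, and 7 without MMPlow 1 and 8 without MMPlow 2. These were cluster 18 and the 9 named classes in which no library had under 10 cells. For Plxnd1 the log2 fold was -3.78 in epithelial or mesonephric-like cells and 0.17 in endothelial-like cells. For Nrp1 it was -2.27 in megakaryocyte-like and 1.13 in epithelial or mesonephric-like cells.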

How the data were processed

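Droplet RNA-seq libraries (10x 3′ v3) of sorted AGM cells, 2 per fraction, were analysed from gene by barcode UMI counts. The deposited counts came from Cell Ranger, version 7.0.1 per the file headers and version 2.1.1 on mm10 per the submitters' processing notes, and whether intronic reads were counted is not given in the sources used here. Barcodes with at least 2000 UMIs, at least 1000 genes and at most 25% mitochondrial UMIs were kept. The 6% of barcodes with the highest Scrublet scores were removed per library, an alternative moved to the main setting because the automatic threshold made 2, 996, 0 and 68 calls. Cells were clustered in scanpy 1.11.5 (2000 variable genes without the 31 members, 30 components, resolution 1). Clusters were named from marker lists (cluster 18 carries the neuron-like list but is called by its number), and after the clusters were seen a name was given only where most of its markers were raised. UMIs were summed per library and class (at least 10 cells) and tested with edgeR 4.0.16 (TMM, low-count filter, quasi-likelihood F-test, Benjamini-Hochberg over all genes). DESeq2 1.42.0 was an alternative. The fits were tested on simulated data with the same spread (dispersion) for all genes and few genes changed. In the all-cell sums of the data far more genes were called, so these rates hold for the simulation only. A log2 change of 1 was recovered in 77.4% of cases in the all-cell sums. It was recovered in 29.3% in endothelial-like cells, 15.6% in cluster 18 and 4.9% in cluster 19. False calls ran from 0.671% of calls in megakaryocyte-like cells to 11.4% in cluster 19, and were 8.14% in the class by fraction model. In that model a log2 change of 2 in 1 class was recovered in 39.7% of cases. Members, gene lists and tests were chosen with earlier results of these data known. Values are printed for members called in a sum, at most 16 in the all-cell sums and 4 per class, and always for Nrp1, Nrp2, Plxnd1, Sema3a, Sema3c, Sema3e, Sema3f and Sema3g. For each class the 3 members highest relative to their mean over classes are named. The genes named from the pathway list and the genes named within sub-clusters were chosen after their values were seen. The labels do not say that replicate numbers mark a shared source, so libraries were not paired.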

Additional observations from a re-analysis of the deposited data

Results flagged for a closer look

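For 13 of the 29 genes tested, the difference between the fractions varied among 10 classes, by the F-test of all class by fraction terms in edgeR, with adjusted p-values over 14800 genes. Among receptors the adjusted p in edgeR was 1.86e-08 for Plxnd1, 1.78e-06 for Nrp1, 0.000245 for Plxna2, 0.00109 for Nrp2 and 0.00773 for Plxnc1. Among class 3 ligands it was 8.85e-06 for Sema3a, 6.91e-05 for Sema3g and 0.0412 for Sema3c in edgeR. For the membrane-bound ligands edgeR gave 6.43e-08 for Sema6a, 0.00369 for Sema4d, 0.00515 for Sema5a, 0.0206 for Sema5b and 0.0439 for Sema6d. Without MMPlow 1 the count was 7 and without MMPlow 2 it was 8. Levels of endothelial marker RNA varied among the same classes, and their part in these differences was not tested.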

How the results depend on the processing

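In the all-cell sums 10949 of 20356 genes tested were called, 6013 of 10452 with a filter of 10 CPM and 1431 of 16625 with equal cells per class. Of the 31 genes, 14 were higher (2 with equal cells, 13 to 15 with 1 library left out) and 9 lower (4 with equal cells, 8 to 9 with 1 library left out). Among genes called in the all-cell sums, the sign turned with equal cells for Sema4a (-0.49), Sema4g (-0.0559) and Sema6a (0.0794), each on the log2 scale. Among genes not called it turned for Sema3e (-0.324), Sema3f (-0.00287), Sema3b (0.0468) and Plxnc1 (0.0271). Within classes, 14 pairs were higher, against 25 with no low-count filter and 7 to 22 with 1 library left out, and 58 lower, against 39 to 67. Resolution 0.5 gave 13 higher pairs. Sema5a in cluster 14 turned to 0.0468 on the log2 scale with automatic Scrublet calls removed, a setting chosen after seeing the data. The class by fraction model called 7 to 17 genes with 1 library left out. The cause of these changes was not tested. With the replicate number as a block, 10705 genes, 14 members higher and 10 lower, and 16 pairs higher and 67 lower were called. Same-numbered libraries correlated by 0.118 in their deviations from the group means in the all-cell sums and by -0.0327 to 0.199 within classes, over 2 pairs. With clusters 14 and 15 ranked beside the classes, the highest was the same for 26 to 30 of 31 genes with 1 library left out, 26 with the mean of CPM per cell and 26 with the stricter cell filter. With 1 library left out it changed for Plxnb3, Plxnc1, Sema3d, Sema4a, Sema4b, Sema4c, Sema4f, Sema4g, Sema6b, Sema6d and Sema7a, and Plxna3 was highest in cluster 18 with the stricter cell filter. Other resolutions have other clusters, so only classes with a name were ranked there, and the highest was the same for 23 genes at resolution 0.5 and 27 at resolution 2. The class with the neuron-like name, cluster 18 alone in the main clustering, held a different set of cells at each (3170 at resolution 0.5), and Plxna1 and Plxnb1 moved to it at both resolutions. The 16 and 14 endothelial-like cells of MMPhigh limit every value within that class.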
